A study of Arabidopsis thaliana with 12 samples.

Results

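Transcripts of 5 genes of chloroplast carbon fixation and of its control by thioredoxins were compared between untreated Arabidopsis thaliana plants and plants whose leaves had been cut. They are PRK (AT1G32060) and SBPASE (AT3G55800), both enzymes of the Calvin cycle, AT5G58330, the plastid NADP-malate dehydrogenase, AT2G04700, the catalytic subunit of ferredoxin-thioredoxin reductase, and NTRC (AT2G41680), the plastid NADPH-thioredoxin reductase. They were chosen by name as genes with a probe that names 1 gene, and each had 1 such probe. These are 5 of 692 probes that name 1 gene, for 691 loci, and of 3439 probes in all. That rule used none of their values on the arrays, but the genes were chosen with earlier results of these data known.

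The plants were wild type of the ecotype Columbia 0. In the wounded group the leaves had been cut and the plants were taken 2 days later, and in the untreated group nothing was done. Each group held 6 arrays of total RNA. The labels gave no harvest day for the untreated plants and no age, and they did not say which organ was extracted or whether arrays came from separate plants. The p-values therefore rest on a spread that may be only technical, and an effect of harvest day cannot be told apart from that of the cuts.

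The Calvin cycle fixes carbon dioxide in the chloroplast stroma with ATP and NADPH from the light reactions. Several of its enzymes are switched on in the light when thioredoxins reduce disulphide bonds in them. Electrons reach most of these thioredoxins from photosystem I through ferredoxin and ferredoxin-thioredoxin reductase, while NTRC draws on NADPH and carries its own thioredoxin domain. This control acts on the proteins, whereas the arrays measured messenger RNA.

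The arrays were alike in mean intensity, at 0.983 to 1.09, and in their share of zeros, at 4.77% to 5.90%. Their log2 medians before normalization differed, from -1.59 to -0.77. They were -1.586 and -1.595 in wounded 2 and 3, -1.05 and -1.07 in wounded 5 and 6, and -1.10 to -0.77 in the untreated arrays. None of the 5 genes was listed at 0 on any array. Wounded replicate 4 stood apart, with correlations of 0.430 to 0.500 with the other arrays over probes, against 0.876 to 0.985 among those 11. The test of each gene is therefore given with and without it. A further 5 pairs of arrays were alike (r between 0.953 and 0.985), namely untreated 1 and 2, 3 and 4, and 5 and 6, and wounded 2 and 3, and 5 and 6. All levels below are log2 of the intensity after quantile normalization unless another scale is named, and levels of different probes are not compared. In bulk RNA, fewer cells of a type and less RNA per cell cannot be told apart. Of 10 leaf mesophyll markers, 4 had a single-gene probe. Of these 4, 0 passed an adjusted p of 0.05 in limma over the 12 arrays or over the 11 without wounded replicate 4. Of all probes, 0% and 2.22% did, so this count does not show whether the share of mesophyll was the same. Their differences over the 11 arrays were -0.92 ± 0.66 (SE) for LHB1B2, -0.078 ± 0.097 for PSBW, 0.36 ± 0.22 for PSBY and 0.14 ± 0.57 for PSAN. Over the 12 arrays they were -0.68 ± 0.64, -0.21 ± 0.17, 0.63 ± 0.32 and 0.45 ± 0.60 in that order. The 11 markers of epidermis, guard cells, vascular tissue and roots and the 10 wound-response genes had no single-gene probe. Neither other cell types nor the wound response could thus be read from these lists, and other probes were not searched for such genes.

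For none of the 5 transcripts did the difference between wounded and untreated plants pass the test against the spread between arrays. Over all 12 arrays, 4 were higher in wounded plants on average and 1 was lower, with adjusted p between 0.508 and 0.851 in limma. The median difference of the 5 was 0.30, against -0.02 over the 3233 probes tested, of which 47.7% were higher in wounded plants. The background over the 12 arrays was 0% of probes past an adjusted p of 0.05, with 11.6% at an unadjusted p under 0.05, where 0 of the 5 lay. Without wounded replicate 4 the median difference of the 5 was 0.14, and again 0 of them passed the adjusted threshold, where 2.22% of 3203 probes did. Those 71 probes became 0 over the same arrays when alike arrays were averaged or fitted as a random block, or when the replicate number was a block, and 2 to 125 passed when 1 further array was left out. Over the 11 arrays without a block, 1 of the 5 had an unadjusted p under 0.05, against 20.8% of all probes. The plot of values by array shows the groups overlapping for each gene.

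**Figure D1:**
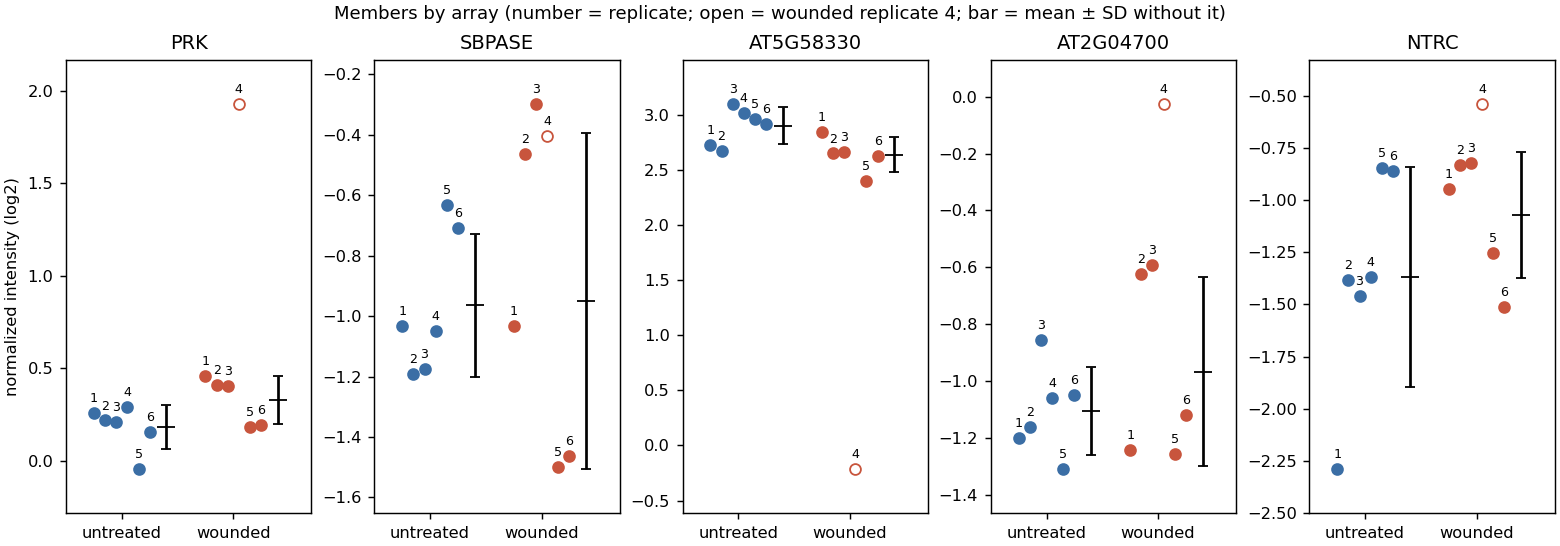
Normalized intensity (log2, vertical axis, a separate scale in each panel) of the 5 genes on the 6 untreated and 6 wounded arrays; each point is an array, numbered by replicate, the open point is wounded replicate 4, and the bar gives the mean and SD without it. The open point lies far above the other wounded arrays for PRK (1.93) and far below them for AT5G58330 (-0.22).

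PRK makes ribulose-1,5-bisphosphate, the acceptor of carbon dioxide, from ribulose-5-phosphate and ATP. Its level in the untreated arrays ran from -0.04 to 0.29 with a median of 0.21. In the wounded arrays it was 0.46, 0.41 and 0.40 in replicates 1, 2 and 3, 1.93 in replicate 4, and 0.18 and 0.19 in replicates 5 and 6. Wounded 1 to 4 thus lay above every untreated array, while wounded 5 and 6 lay within the untreated range. The mean difference was 0.41 ± 0.27 (SE, n = 6 and 6, limma adjusted p = 0.531), or 1.33-fold with a 95% interval from 0.887 to 2.00. Without wounded replicate 4 it was 0.15 ± 0.10 (n = 5 and 6, adjusted p = 0.441), or 1.11-fold with an interval from 0.948 to 1.29. On the 11 arrays the residual SD of PRK was 0.125 on the log2 scale, and 4.25% of probes had a smaller one. That share was 15.9% with median centring and 7.62% as deposited over the same arrays. It was 45.7% over all 12 arrays after quantile normalization. The deposited intensity of PRK ran from 0.987 to 1.45 in untreated plants and from 1.13 to 1.36 in the 5 wounded arrays, so that on that scale the wounded range lay inside the untreated one. Wounded replicate 4 was at 2.67.

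SBPASE removes a phosphate from sedoheptulose-1,7-bisphosphate and so commits carbon to the regeneration of the acceptor. Untreated levels ran from -1.19 to -0.63 with a median of -1.04. Wounded levels were -1.03 in replicate 1, -0.46 and -0.30 in replicates 2 and 3, -0.40 in replicate 4, and -1.499 and -1.463 in replicates 5 and 6. The wounded arrays thus lay on both sides of the untreated range, with 3 above it, 2 below it and 1 inside. The same counts held with median centring, but as deposited 0 lay above, 3 below and 3 inside. The mean difference was 0.11 ± 0.25 (SE, n = 6 and 6, adjusted p = 0.851) over 12 arrays and 0.014 ± 0.23 (n = 5 and 6, adjusted p = 0.983) over 11. The 95% interval over 11 arrays reached from 0.710-fold to 1.44-fold. SD among the wounded arrays without replicate 4 was 0.56, against 0.24 among the untreated ones.

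AT5G58330 encodes the enzyme that reduces oxaloacetate to malate with NADPH, which lets surplus reducing power leave the chloroplast as malate. It is a well-known target of thioredoxin. Its untreated levels ran from 2.67 to 3.10 with a median of 2.94. Wounded levels were 2.84, 2.65 and 2.66 in replicates 1, 2 and 3, -0.22 in replicate 4, and 2.40 and 2.63 in replicates 5 and 6. All wounded arrays but replicate 1 were below the lowest untreated array, with wounded 2, 3 and 6 only just below it. The mean difference over 12 arrays was -0.74 ± 0.44 (SE, adjusted p = 0.508), or 0.600-fold with a 95% interval from 0.308 to 1.17. Without wounded replicate 4 it was -0.26 ± 0.12 (adjusted p = 0.229, unadjusted p = 0.0459), or 0.835-fold with an interval from 0.699 to 0.996. With quantile normalization and no block, this was the single unadjusted p under 0.05 among the 5 genes over the 11 arrays. The adjusted p did not pass. With the alike arrays fitted as a random block over the 11 arrays, the difference was -0.23 and the unadjusted p was 0.183, where 7.59% of probes had an unadjusted p under 0.05. The same block over 12 arrays gave -0.94 with an unadjusted p of 0.138. With median centring in place of quantile normalization, the difference over the 11 arrays was 0.17 instead, so its direction rests on the scaling. As deposited, 3 wounded arrays (4, 5 and 6) lay below the untreated range and 3 inside it. With median centring, wounded 2 and 3 lay above that range and only wounded 4 below it.

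AT2G04700 encodes the iron-sulphur subunit that passes electrons from ferredoxin to thioredoxin. Its untreated levels ran from -1.31 to -0.85 with a median of -1.11. Wounded levels were -1.24 in replicate 1, -0.62 and -0.59 in replicates 2 and 3, -0.03 in replicate 4, and -1.26 and -1.12 in replicates 5 and 6. Wounded 2, 3 and 4 lay above every untreated array, and the other wounded arrays lay inside the untreated range. As deposited, wounded 2 and 3 lay inside that range, with wounded 4 above it and wounded 1 below it. The mean difference was 0.30 ± 0.22 (SE, adjusted p = 0.560) over 12 arrays and 0.14 ± 0.15 (adjusted p = 0.642) over 11. The latter was 1.101-fold, with a 95% interval from 0.871 to 1.39.

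NTRC reduces 2-Cys peroxiredoxins and several thioredoxin targets, and it works also in the dark. Untreated levels ran from -2.29 to -0.84 with a median of -1.37. Wounded levels were -0.94, -0.83 and -0.82 in replicates 1, 2 and 3, -0.54 in replicate 4, and -1.25 and -1.51 in replicates 5 and 6. Wounded 2, 3 and 4 lay above every untreated array, the first 2 of them only just, and the others lay inside the untreated range. As deposited, all 6 lay inside it. The low end of the untreated range was untreated replicate 1, which lay 0.91 below its alike partner, untreated 2. The difference within each of the other 4 alike pairs was at most 0.26 for NTRC. The mean difference was 0.38 ± 0.26 (SE, adjusted p = 0.536) over 12 arrays and 0.30 ± 0.25 (adjusted p = 0.529) over 11, where the 95% interval ran from 0.843-fold to 1.79-fold. Without untreated replicate 1 the difference over the remaining arrays was 0.20, and without both that array and wounded replicate 4 it was 0.11.

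**Figure D2:**
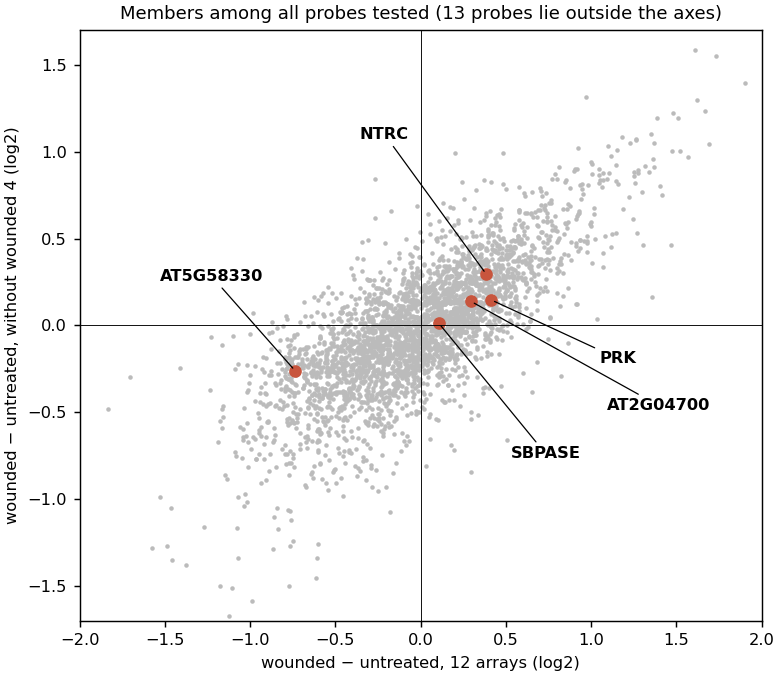
Wounded minus untreated difference (log2) of each of 3203 probes over all 12 arrays (horizontal axis) and without wounded replicate 4 (vertical axis), with the 5 genes marked; 13 probes lie outside the axes. The 5 genes lie within the cloud of all probes, at -0.74 and -0.26 for AT5G58330 and at 0.38 and 0.30 for NTRC.

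The 5 genes were also placed among all probes by their signed difference. Over the 11 arrays, 82.9% of probes had a lower difference than NTRC, 70.5% a lower one than PRK, 69.7% a lower one than AT2G04700 and 54.8% a lower one than SBPASE. For AT5G58330, 23.04% of probes had a lower one. Over the 12 arrays the share was 81.9% for NTRC, 83.8% for PRK, 76.5% for AT2G04700, 60.9% for SBPASE and 6.40% for AT5G58330. The range of the wounded arrays without replicate 4 overlapped that of the untreated arrays for each of the 5 genes. Over all probes measured on the 11 arrays, the wounded range lay wholly above the untreated one for 2.62% and wholly below it for 3.27%. With wounded replicate 4 included these shares were 1.29% and 2.27%.

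Within the wounded group, SBPASE, AT2G04700 and NTRC all had higher values in the alike pair 2 and 3 than in the pair 5 and 6. The gap was 1.101 for SBPASE, a size larger than that of 90.1% of 3147 probes, and it was 0.58 for AT2G04700 and 0.56 for NTRC. PRK and AT5G58330 had gaps of 0.22 and 0.14, below the median size of 0.39 over all probes. These gaps depended on the scaling. As deposited they were 0.63 for SBPASE, 0.089 for AT2G04700, 0.034 for NTRC, -0.096 for PRK and 0.25 for AT5G58330, and with median centring 1.16, 0.62, 0.57, 0.44 and 0.79 in that order. The means of the 3 untreated pairs spanned 0.98 for NTRC and 0.44 for SBPASE. They spanned 0.36 for AT5G58330, 0.22 for AT2G04700 and 0.19 for PRK. After quantile normalization, for each gene but AT5G58330, the gap between these wounded pairs was larger than the difference between wounded and untreated plants over the 11 arrays. Whether the alike arrays share plants, an extract or a hybridization is not given, and the part of such a source in these values was not tested.

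**Figure D3:**
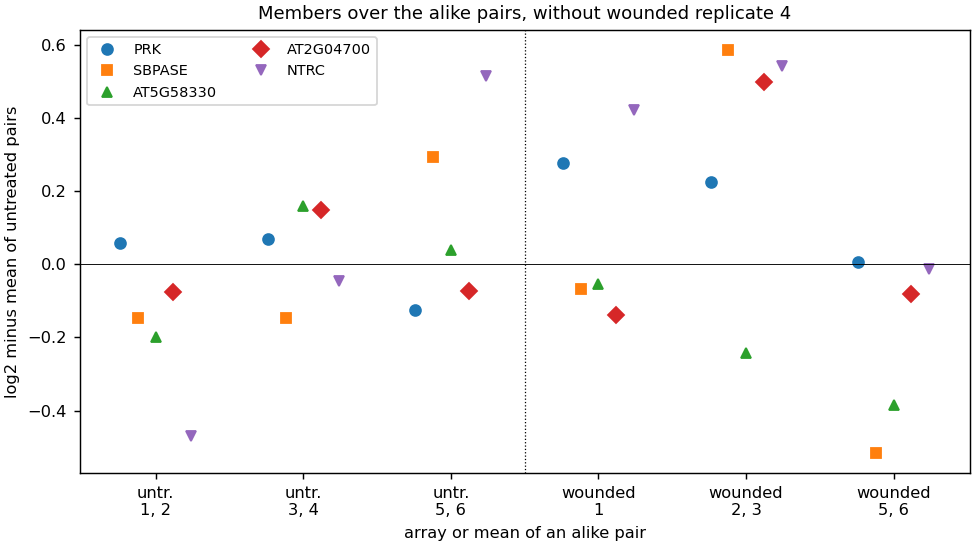
Mean quantile-normalized log2 level of each gene in the 3 untreated pairs, wounded array 1 and the 2 wounded pairs (horizontal axis), less the mean of its untreated pairs (vertical axis); wounded replicate 4 is left out. SBPASE, AT2G04700 and NTRC are high in wounded 2 and 3 and lower in wounded 5 and 6, a gap of 1.101 for SBPASE, which is 0.63 with the values as deposited, where those of AT2G04700 and NTRC are 0.089 and 0.034.

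Ratios between the genes within an array do not depend on a common scaling factor of that array, and here only their shift between the groups is read. The log2 ratio of the deposited intensities was taken for the 10 pairs of the 5 genes. Without wounded replicate 4, the wounded and untreated ranges overlapped for all 10 ratios, and the mean ratios shifted by between -0.26 and 0.25. The lowest shift was that of SBPASE over NTRC, from 0.40 ± 0.41 in untreated to 0.14 ± 0.35 in wounded plants (SD, n = 6 and 5). The highest was that of PRK over SBPASE, from 1.12 ± 0.34 to 1.37 ± 0.39. PRK over AT5G58330 shifted by 0.13 only, although the 2 genes differed in the sign of their change after quantile normalization. With wounded replicate 4 included, the shifts ran from -0.75 for AT5G58330 over NTRC to 0.87 for PRK over AT5G58330. No test was made on these ratios.

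The differences depended on the scaling between arrays. With the values as deposited, the median difference over all probes was -0.32 over the 12 arrays and -0.31 over the 11, in place of -0.02. On that scale without wounded replicate 4, PRK had a difference of -0.038, SBPASE -0.29, AT5G58330 -0.17, AT2G04700 -0.18 and NTRC -0.023, each above the median of all probes. AT5G58330, unlike the other genes, had a higher value there than after quantile normalization. With median centring over the 11 arrays, PRK had 0.30 (limma unadjusted p = 0.0391, adjusted p = 0.203). AT5G58330 had 0.17 (unadjusted p = 0.462, adjusted p = 0.698), and SBPASE, AT2G04700 and NTRC had 0.05, 0.16 and 0.31. In that setting 715 of 3203 probes had an unadjusted p under 0.05. None of the 5 genes passed the threshold under any of these scalings, as the plot of differences by setting shows.

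**Figure D4:**
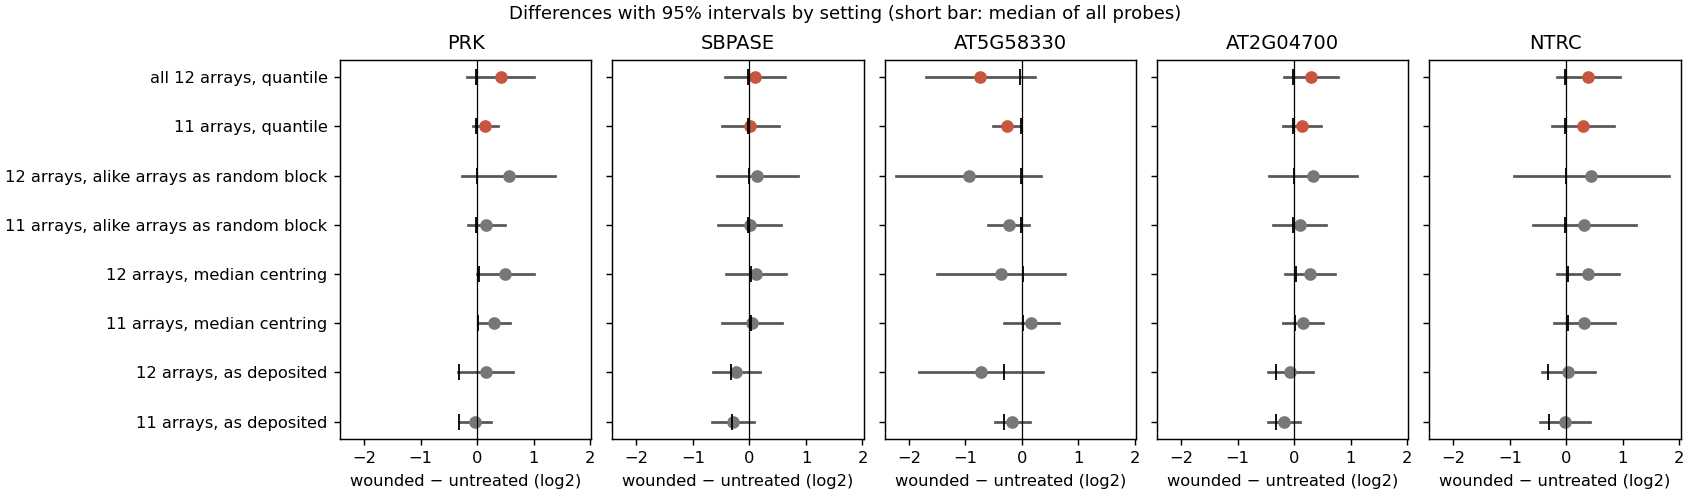
Wounded minus untreated difference (log2, horizontal axis) of each gene with its 95% interval under 8 settings (rows), which differ in the arrays used, the random block and the scaling; the short bar is the median difference of all probes. The point of AT5G58330 changes side with median centring over 11 arrays (0.17), and the bar for all probes shifts to about -0.3 with the values as deposited.

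Of 86 genes in lists of the Calvin cycle, the thioredoxin system, other thioredoxin targets and malate dehydrogenases, photorespiration, and starch and sucrose synthesis, 5 had a single-gene probe, and these were the 5 described. On probes that name several genes, 6 of the 86 were found, and no value is given from those probes. Whether any of the 5 is among these 6 was not counted. The plastid thioredoxins, Rubisco, the glyceraldehyde-3-phosphate dehydrogenases and CP12, the small protein that binds PRK in the dark, are not analysed here.

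The single-gene probes with the profile most like that of each gene were found over the 11 arrays, as the root mean square (RMS) difference of log2 levels centred on each probe's mean, among 612 probes. For PRK these were AT1G13990 (RMS difference 0.105) and AT5G44520 (0.112), against a median of 0.338. For SBPASE they were AT1G50770 (0.181) and DI21 (0.183), against a median of 0.484, and for AT5G58330 they were AT4G21820 (0.0853) and AT3G50880 (0.129), against 0.353. AT2G04700 was closest to AT4G32340 (0.117) and AT4G30680 (0.128), against a median of 0.391. NTRC was closest to PSBY, a subunit of photosystem II, at 0.219 and to APS4, an ATP sulphurylase, at 0.236, against a median of 0.530. None of these 10 probes passed the threshold over the 11 arrays, where 2.22% of all probes did. The lowest adjusted p among them in limma was 0.287, for AT4G30680. They were picked on the same arrays for likeness to genes that did not pass, so this count is no separate result. The closest of the 5 genes to each other were PRK and AT2G04700, at 0.201, and the farthest were AT5G58330 and NTRC, at 0.457. A small RMS difference also arises between probes that vary little, such as PRK.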

How the data were processed

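The authors deposited intensity values on a linear scale for 3439 probes on 12 arrays. Neither the array type nor the background correction and scaling are named in the labels. The table holds no signal over background, and precision is limited by how few arrays there are. Groups and replicate numbers came from the sample titles. Probe names came from GEO's platform annotation, which may be outdated, and were updated through gene identifiers to RefSeq (TAIR10.1), where 690 of 692 single-gene probes matched. Coordinates are left out, since the table names no build.

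Values of 0 were taken as missing, the rest put on the log2 scale and quantile-normalized. Probes with at least 4 values in each group were tested with limma 3.58.1 (lmFit and eBayes, two-sided, no block) in R 4.3.3, with Benjamini-Hochberg adjustment over all probes and a threshold of 0.05. Wounded replicate 4 was left out after scaling. Intervals are 95% moderated intervals. Alternatives were the scaling, an offset of 0.1, filters on dim or incomplete probes, an intensity trend, array weights, the replicate number as a block, the alike arrays as a random block or averaged, and leaving out each array. The fit was run on simulated data with independent arrays. These held neither alike pairs nor an array that stood apart, so they do not show how the fit behaves with either. Named were the 5 genes, any gene of the pathway lists with a single-gene probe, and the 2 probes nearest to each gene. The genes, lists and alternatives were chosen with earlier results of these data known. Plots were made in Python 3.11.15 with matplotlib 3.10.9.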

Additional observations from a re-analysis of the deposited data

Results flagged for a closer look

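Wounded replicate 4 lay far from the other 5 wounded arrays for PRK and for AT5G58330. For PRK it was the highest, with a gap to the next array of 0.842 of the group's range. For AT5G58330 it was the lowest, with a gap of 0.856 of the range. Both gaps exceed Dixon's 95% limit for 6 arrays, and 10 groups were looked at here. Wounded replicate 4 stood apart over all probes, so its gaps are no separate result about PRK or AT5G58330. Chance passes that limit in about 1 group of 20 if the arrays are independent, but wounded 2 and 3, and 5 and 6, were alike. How many of all probes pass it was not counted. Wounded replicate 4 lay 1.60 above the mean of the other wounded arrays for PRK and stood at -2.85 from it for AT5G58330 on the log2 scale. Over 3235 probes the quartiles of such deviations were -1.15 and 1.29. Of these probes, 81.0% were lower than PRK and 6.31% lower than AT5G58330. SBPASE, AT2G04700 and NTRC lay 0.55, 0.94 and 0.53 above, without passing the limit.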

How the results depend on the processing

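None of the 5 genes passed the threshold in limma under any of 27 other settings, chosen with earlier results known, or of 11 added later, which left out wounded replicate 4 and 1 further array. The sign differed from that over the 12 arrays in 9 of 135 values under the former and in 5 of 55 added ones. With the values as deposited, SBPASE had -0.23 and AT2G04700 -0.066 over 12 arrays, and over 11 SBPASE had -0.29, AT2G04700 -0.18, PRK -0.038 and NTRC -0.023. AT5G58330 had 0.17 with median centring over 11 arrays, and there the cause was not tested. SBPASE had -0.0026 with the replicate block over 11 arrays. Leaving out 1 array gave PRK 0.15 to 0.50, SBPASE -0.0073 (without wounded 3) to 0.23, AT5G58330 -0.87 to -0.26, AT2G04700 0.14 to 0.38 and NTRC 0.20 to 0.49. Leaving out wounded replicate 4 and 1 further array gave SBPASE -0.15 to 0.15, PRK 0.10 to 0.18, AT5G58330 -0.31 to -0.20, AT2G04700 0.04 to 0.21 and NTRC 0.11 to 0.41. The negative values of SBPASE were -0.031, -0.028 and -0.0026 without untreated 2, 3 or 4, and -0.11 and -0.15 without wounded 2 or 3. Of all probes, 0 passed over the 12 arrays and between 0 and 71 without 1 array (71 without wounded replicate 4), 7 as deposited, 1 with the offset and 179 with array weights. Without wounded replicate 4, 72 passed with median centring, 87 as deposited, 2 to 125 without 1 further array, and 0 with the replicate block or when alike arrays were averaged or fitted as a random block. With the replicate block over 12 arrays the difference of PRK was 0.41 (adjusted p = 0.628) and 0 probes passed, 256 with an unadjusted p under 0.05. Arrays of the same number correlated at -0.34 to 0.09 in their deviations from the group mean. The wounded mean included replicate 4, which stood apart and can weaken such correlations, and the check was not repeated without it. The labels name no pairing, and the numbers were not taken to pair the arrays. The alike arrays as a random block over 12 arrays gave 0 probes and a difference of -0.94 for AT5G58330 and 0.56 for PRK. Intensities without background values limit what can be said of dim probes.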
